A study of Mus musculus with 1 sample.

Results

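The transcripts examined here encode 10 subunits of the Polycomb repressive complexes, taken by gene symbol from the 27998 genes listed in the count matrix of a wild-type mouse testis library. The members are Ezh1, Ezh2, Eed and Suz12 of Polycomb repressive complex 2 (PRC2), Rnf2, Ring1, Bmi1 and Pcgf6 of Polycomb repressive complex 1 (PRC1), and the SCM proteins Scmh1 and Scml2. All 10 were found once and all had UMIs, as did 18722 of the listed genes. The library came from wild-type C57BL/6 mice at postnatal day 8, whose cells carried no targeted allele. Cells bound by anti-THY1 magnetic beads were enriched from the testes of 3 mice, a small number of unselected testis cells was added back, and equal numbers of cells per mouse were pooled into 1 Chromium v2 library. THY1 lies on the surface of spermatogonia that have not begun to differentiate, so the proportions of cell types follow from the enrichment and the added cells. The Zscan2 knockout library of the same study was not analyzed here.

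Polycomb proteins keep genes silent through chromatin. PRC2 methylates histone H3 on lysine 27 through the EZH1 or EZH2 subunit, held in a core with EED and SUZ12, and PRC1 places ubiquitin on histone H2A through the RING proteins encoded by Ring1 and Rnf2. A PCGF protein in each PRC1 (BMI1 and PCGF6 are examples) sets which further subunits join. In the male germline SCML2 is known as a PRC1-associated protein that is abundant in spermatogonia and acts in the shift of gene expression from mitotic to meiotic stages. SCMH1 is its broadly expressed relative.

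Of 970 barcodes, 920 passed the filters, with 2655 to 44915 UMIs in each barcode before filtering. Clustering gave 324 germ cells and 596 somatic cells, so most retained cells of this spermatogonia-enriched preparation were somatic. The germ cell marker Dazl stood at 792 UMIs per 1000000 UMIs of the class (CPM) in germ cells and 14.7 CPM in somatic cells. Germ cells were 112 SSC-like cells (SSC, spermatogonial stem cell), 79 progenitor-like cells and 133 differentiating-like cells, and the first 2 classes together are called undifferentiated here. The top 10 genes of the SSC-like and progenitor-like clusters held none of the markers of their own lists. Their names rest on small mean differences of those markers in log-normalized expression, 0.156 for SSC-like and 0.22 for progenitor-like cells. The somatic cells comprised 255 Sertoli-like, 186 stromal-like, 35 macrophage-like and 94 peritubular myoid-like cells, with 26 left unnamed. These 26 matched perivascular markers best, but their top 10 genes held the T cell marker Cd3g and no listed perivascular marker. The germ classes had median depths of 22293 UMIs (SSC-like), 19446 (progenitor-like) and 10878 (differentiating-like), and Sertoli-like cells had 8343. A cluster of 62 germ cells had a median of 3905 UMIs. Levels are UMIs summed over a class, in CPM, with 95% Poisson intervals, and a 3′ UMI count allows a gene to be compared between classes but not with other genes. With 1 library there were no replicates, no test was possible, and every interval covers counting error only. The clusters were built from the same counts. None of the 10 members was among the variable genes used to cluster all cells, and Ezh2 alone was among those used to cluster germ cells.

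Scml2 (ENSMUSG00000000037, chromosome X, 161117193 to 161258213, plus strand, GRCm38) separated germ from somatic cells most widely among the members. The sequences just upstream of the RefSeq start of Scml2, its homolog Scmh1 and Ring1 are shown because Scml2 and Ring1 had the highest and the lowest germ over somatic ratios of the 10 members, whereas Scmh1 was near equality. Each line gives 250 bases 5′ to 3′ on the gene's strand, ending at the base before the start, from RefSeq on GRCm38.p6, with each CpG dinucleotide in capitals. They lie at chrX:161162500-161162749 (plus strand), chr4:120405098-120405347 (plus strand) and chr17:34024681-34024930 (minus strand).

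Scml2: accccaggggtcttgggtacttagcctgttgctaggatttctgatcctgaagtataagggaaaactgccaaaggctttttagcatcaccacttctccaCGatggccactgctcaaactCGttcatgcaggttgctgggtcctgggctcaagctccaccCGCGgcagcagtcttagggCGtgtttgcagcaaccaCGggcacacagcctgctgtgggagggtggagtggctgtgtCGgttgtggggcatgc

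Scmh1: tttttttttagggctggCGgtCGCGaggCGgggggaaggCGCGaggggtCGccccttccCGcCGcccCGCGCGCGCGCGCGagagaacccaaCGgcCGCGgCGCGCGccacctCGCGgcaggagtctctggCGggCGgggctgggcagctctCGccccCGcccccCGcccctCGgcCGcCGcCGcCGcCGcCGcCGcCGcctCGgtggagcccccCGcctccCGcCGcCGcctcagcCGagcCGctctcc

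Ring1: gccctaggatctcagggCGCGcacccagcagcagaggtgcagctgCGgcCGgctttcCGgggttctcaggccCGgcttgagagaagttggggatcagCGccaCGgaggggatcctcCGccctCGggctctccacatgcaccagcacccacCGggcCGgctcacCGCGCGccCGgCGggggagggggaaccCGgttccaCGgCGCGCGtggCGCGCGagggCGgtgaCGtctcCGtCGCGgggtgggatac

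The Scml2 window held 7 CpG dinucleotides, against 45 for Scmh1 and 30 for Ring1. Across 32851 mouse promoters of this length the median was 6, and 53.7% held fewer than Scml2, 94.1% fewer than Ring1 and 99.6% fewer than Scmh1. The RefSeq start used for Scml2 lies inside the span that GENCODE gives the gene, so an upstream start is not covered by this window. Scmh1 has another RefSeq start, whose window held 0 CpG dinucleotides. The letters TTCCCGC, which match sites of E2F cell cycle factors, were searched on both strands and occurred in the windows of Suz12 (218 bases before the start) and Scmh1 (195 bases before it), as in 3.82% of all promoters. The letters CACGTG, the E-box read by MYC and MAX family factors, occurred in that of Bmi1 (215 bases before the start), as in 6.02% of all promoters. TTGGCGC, another E2F-like word present in 1.97% of promoters, was in none of the 10 members' windows. These matches describe the letters in the windows and not binding.

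In SSC-like cells Scml2 stood at 125 CPM (306 UMIs, interval 112 to 140). Progenitor-like cells had 100 CPM (145 UMIs, 84.6 to 118), and differentiating-like cells had 118 CPM (196 UMIs, 102 to 136). It was at 6.97 CPM in Sertoli-like cells (16 UMIs), 7.92 CPM in stromal-like cells (13 UMIs) and 4.05 CPM in peritubular myoid-like cells (3 UMIs). Macrophage-like cells had 0 UMIs, which allows a level of up to 5.81 CPM (3 counts). All germ classes therefore lay far above all somatic classes. Among the germ classes, neighbors in the order of levels did not differ beyond counting error, and SSC-like exceeded progenitor-like cells by a log2 ratio of 0.32 (0.03 to 0.62). Over all germ and all somatic cells the levels were 116 and 6.16 CPM, an 18.9-fold difference (13.3 to 27.7). Germ cells exceeded Sertoli-like cells 16.7-fold (10.2 to 29.4), stromal-like cells 14.7-fold (8.54 to 27.8) and peritubular myoid-like cells 28.7-fold (9.79 to 140). They were at least 20.04-fold higher than macrophage-like cells, with 3 counts over that class as the floor. Of the 12989 genes with at least 20 UMIs in these cells, 4.27% had a higher germ over somatic ratio than Scml2.

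An Scml2 UMI was present in 89.3% of SSC-like cells, 79.7% of progenitor-like cells and 54.9% of those classed as differentiating-like. Cells with at least 5000 UMIs (110 SSC-like, 72 progenitor-like and 97 differentiating-like) were then thinned to 5000 UMIs, and shallower cells were left out. The shares in these cells were 41.8%, 38.9% and 45.4%, so the order seen at full depth in all cells did not remain. In somatic cells the share was 5.37% at full depth, at a median of 8194 UMIs, and 3.83% after thinning. The 33 somatic UMIs were spread over 32 cells, with at most 2 in a cell. The somatic level was 5.29% of the germ level (3.61 to 7.50). For 6 germ cell marker genes this value ranged from 1.86% (Dazl) to 9.78% (Taf4b), with 5 of the 6 below that of Scml2. Whether somatic cells make any of these markers was not tested. Somatic cells with an Scml2 UMI carried 44.8 CPM of these markers and those without one 30.9 CPM, a 1.45-fold difference (0.774 to 2.50). The counting interval of Scml2 lay above those of Dazl (1.47 to 2.33) and Sohlh1 (1.55 to 3.35). It overlapped those of Ddx4 (1.47 to 3.98), Zbtb16 (1.18 to 3.83), Tdrd1 (2.33 to 8.62) and Taf4b (5.85 to 15.5). The same 6 markers were the list by which germ cell clusters were named. By cluster, the Sertoli-like UMIs were 8 in the 45 cells with the highest Top2a (17.1 CPM), 7 in the 132 cells with the lowest (6.16 CPM) and 1 in the other 78 cells (1.45 CPM). Whether the somatic UMIs were made in somatic cells or came from free germ cell RNA was not tested.

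**Figure D1:**
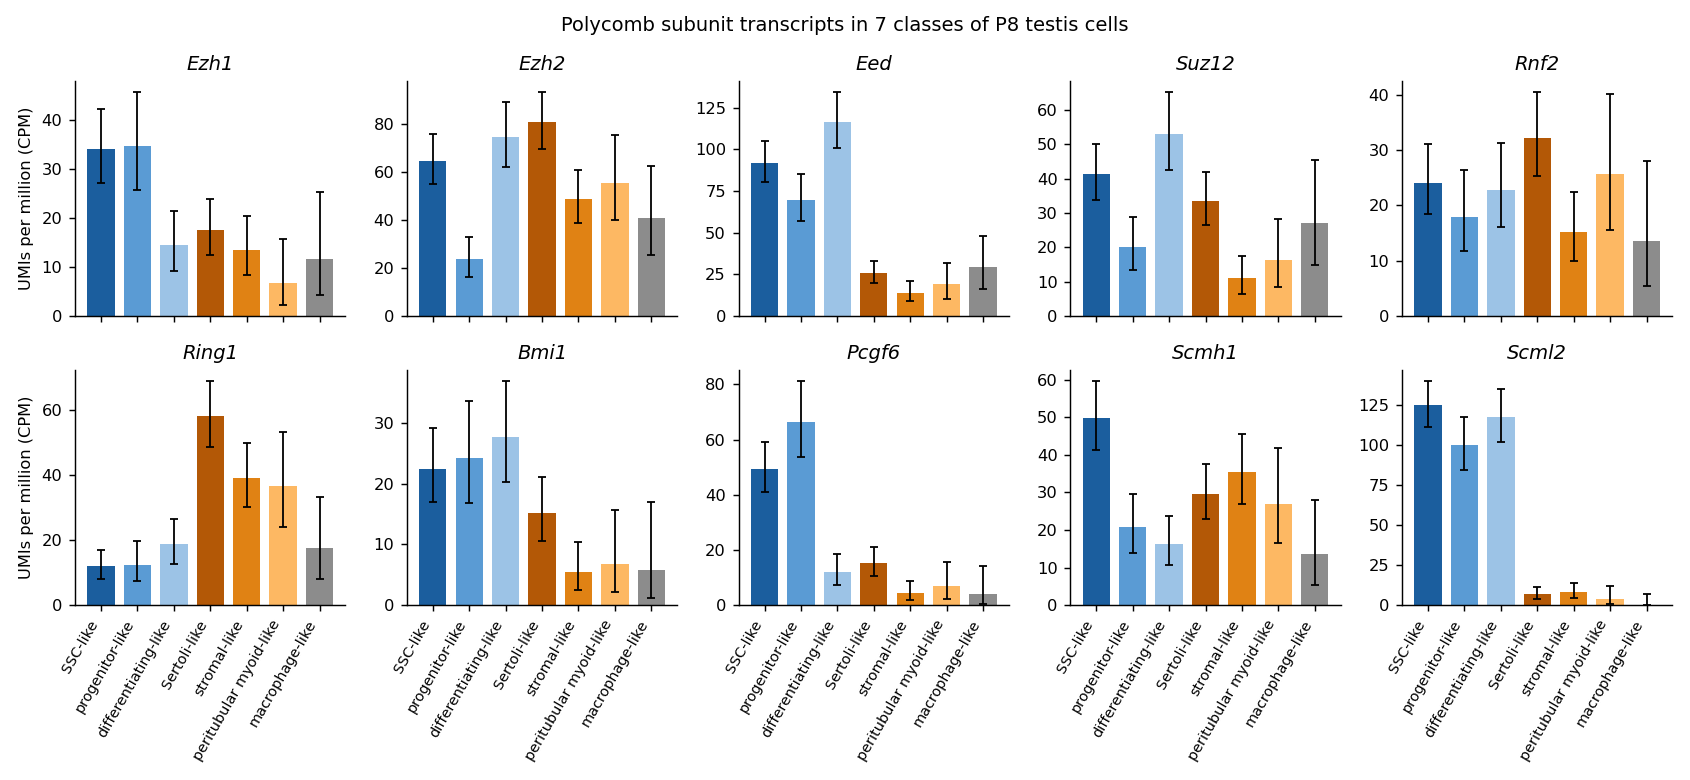
Level of each of the 10 Polycomb transcripts (CPM) in 7 classes of cells from 1 library. Bars are summed counts and error bars 95% Poisson intervals for counting error; blue bars are germ classes, orange and gray bars somatic classes. Scml2 is at 100 to 125 CPM in the germ classes and at most 7.92 CPM in the somatic classes, while Ring1 is highest in Sertoli-like cells at 57.9 CPM.

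Of the 10 members, 5 were at least 2-fold higher in germ than in somatic cells (Ezh1, Eed, Bmi1, Pcgf6 and Scml2), where 25.3% of all genes tested were, and 1 (Ring1) was at least 2-fold lower, where 28.7% of all genes were. The median log2 ratio of the members was 0.90 and that of all 12989 genes 0.04. The threshold fell between Ezh1, at a log2 ratio of 1.01, and Suz12, at 0.79.

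Within PRC2, Eed, whose product binds methylated H3 and is needed for enzyme activity, had its highest level in differentiating-like cells (117 CPM), then in SSC-like (92.0 CPM) and progenitor-like cells (69.8 CPM), and at most 29.1 CPM in the somatic classes. Its germ over somatic ratio was 4.36-fold (3.56 to 5.39), and no interval of a germ class overlapped that of a named somatic class. Ezh1, the weaker of the alternative methyltransferases, had 157 UMIs in germ and 75 UMIs in somatic cells, 2.02-fold by CPM (1.52 to 2.70), so that the lower bound lay below 2-fold. Suz12, the scaffold of the core, was at 39.2 and 22.8 CPM, a ratio of 1.72-fold (1.37 to 2.17). Against Sertoli-like cells alone (33.5 CPM) the Suz12 ratio was 1.17-fold (0.898 to 1.54), and against stromal-like cells (11.0 CPM) it was 3.58-fold (2.21 to 6.15). The median log2 ratio of all genes was 0.11 in the former and 0.48 in the latter comparison. Ezh2, the methyltransferase of dividing cells, was at 56.9 CPM in germ and 64.4 CPM in somatic cells, which gave a log2 ratio of -0.18 (-0.40 to 0.05). Against Sertoli-like cells (80.6 CPM) the Ezh2 log2 ratio was -0.50 (-0.77 to -0.23), and the interval against each other named somatic class included 0.

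Within PRC1, the alternative E3 ligase genes differed in their distribution. Ring1 was between 11.9 and 18.6 CPM in the germ classes and at 57.9, 39.0 and 36.5 CPM in Sertoli-like, stromal-like and peritubular myoid-like cells. Over all cells it was 3.20-fold lower in germ than in somatic cells (2.47 to 4.19), with 78 and 241 UMIs. The interval of macrophage-like cells (17.4 CPM, 9 UMIs) overlapped those of the germ classes. Rnf2, the other E3 ligase gene, was at 22.1 CPM in germ and 23.7 CPM in somatic cells (log2 ratio -0.10, -0.47 to 0.27). The somatic classes were not alike, with 32.2 CPM in Sertoli-like and 15.2 CPM in stromal-like cells. Germ cells were below Sertoli-like cells (log2 ratio -0.54, -0.97 to -0.11), and the interval against each other named somatic class included 0. Trmt1l, a protein-coding gene, overlaps Rnf2 on the opposite strand, and whether counting used strand is not given in the sources used here.

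Among the PCGF members, Pcgf6, which joins a variant PRC1 with the DNA-binding factors MGA and MAX, was at 42.7 CPM in germ and 9.70 CPM in somatic cells, 4.40-fold (3.24 to 6.06). Bmi1, a PCGF subunit of canonical PRC1, was at 24.5 and 10.1 CPM, 2.43-fold (1.76 to 3.39). Under a mitochondrial limit of 5%, which left 67 germ cells, the log2 ratio of Bmi1 was 0.35 in place of 1.28 and that of Suz12 1.44 in place of 0.79, so Bmi1 lost and Suz12 gained the 2-fold call. Against Sertoli-like cells, the largest somatic class, the Bmi1 ratio was 1.61-fold (1.10 to 2.40). At the 3′ end of the Bmi1 transcripts, 9.58% of 50-base words also occur in transcripts of AC114652.1 and Gm5946, so its counts are less certain than those of the other 9 members, which share 0%. Scmh1 was at 32.2 CPM in germ and 29.1 CPM in somatic cells (log2 ratio 0.15, -0.17 to 0.47).

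**Figure D2:**
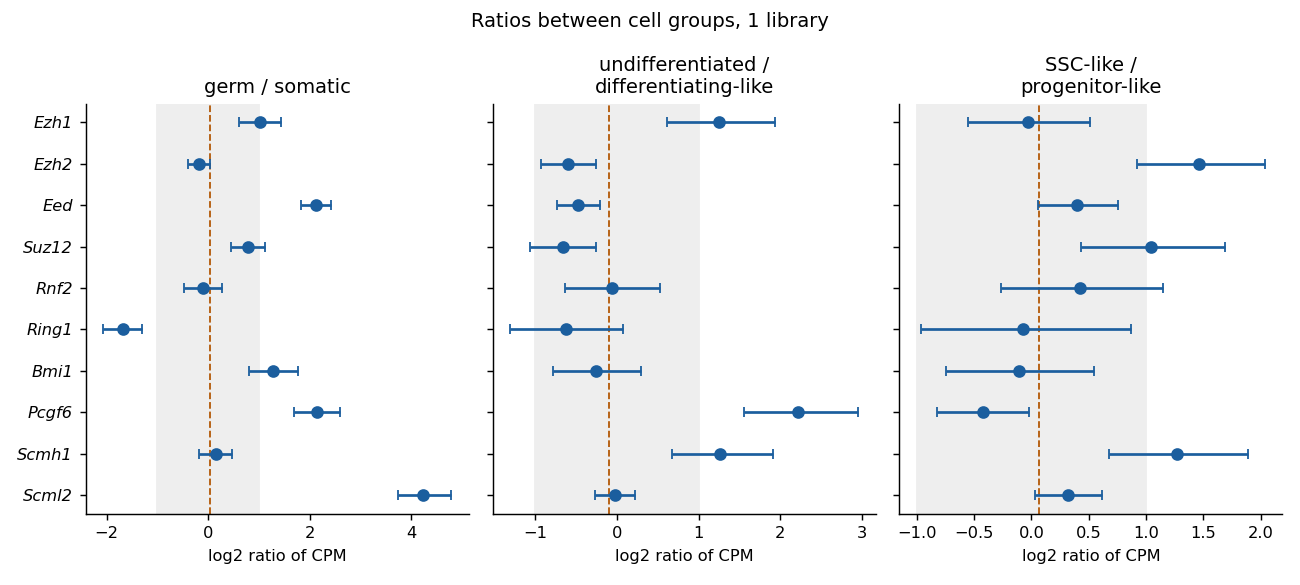
Log2 ratio of CPM for the 10 members in germ over somatic, undifferentiated over differentiating-like and SSC-like over progenitor-like cells. Points are ratios, bars 95% intervals for counting error, the gray band spans a 2-fold difference either way and the dashed line is the median of all genes tested. Scml2 lies at 4.24 in the first panel, -0.02 in the second and 0.32 in the third. Ezh2 lies at -0.18 in the first panel and 1.46 in the third.

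Germ and somatic cells also differed in cell cycle transcripts. Top2a, which encodes the topoisomerase of dividing cells, was at 224 CPM in germ and 101 CPM in somatic cells. Among the 246 germ and 133 somatic cells with a UMI of Mki67 or Top2a, a comparison added after values had been seen, 3 members were at least 2-fold higher in germ cells (Eed, Pcgf6 and Scml2), as were 24.7% of all genes. Ring1 and Ezh2 were at least 2-fold lower, as were 25.3% of all genes. The germ cells of this subset had a median of 19414 UMIs and the somatic cells 10445, and a deeper cell can show such a UMI more readily. In these cells Ezh2 was at 62.5 CPM in germ and 125 CPM in somatic cells, with an interval of the log2 ratio of -1.27 to -0.73, and Scml2 at 119 and 10.6 CPM, a log2 ratio of 3.49 (2.77 to 4.30). The sign of the Scml2, Eed, Pcgf6, Ring1, Ezh1 and Bmi1 differences was thus the same in this subset. Ezh1 and Bmi1 fell below 2-fold, with log2 ratios of 0.88 (0.20 to 1.62) and 0.86 (0.17 to 1.63). Among the 78 germ and 463 somatic cells without such a UMI, 5 members were at least 2-fold higher in germ cells, as were 20.8% of all genes, and 1 was lower, as were 32.4% of all genes. There Ezh1 and Bmi1 both had log2 ratios of 1.57, Ezh2 had -0.51 (-1.17 to 0.09) and Scml2 had 4.56 (3.80 to 5.39).

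Within the germline, 3 of the 10 members were at least 2-fold higher in undifferentiated than in differentiating-like cells (Ezh1, Pcgf6 and Scmh1), against 10.4% of 10519 genes, and 0 were 2-fold lower, against 8.15%. Pcgf6 had the largest ratio. Its levels were 49.5 CPM (SSC-like), 66.4 CPM (progenitor-like) and, on 20 UMIs, an interval of 7.34 to 18.6 CPM (differentiating-like), 4.64-fold higher in the undifferentiated cells (2.93 to 7.75). The level in differentiating-like cells was not apart from that in Sertoli-like cells (15.2 CPM). Ezh1 was at 33.9, 34.6 and 14.4 CPM in the same order of germ classes, 2.37-fold higher in undifferentiated cells (1.53 to 3.83). Scmh1 had a ratio of 2.41-fold (1.59 to 3.77), with 49.9, 20.7 and 16.2 CPM in that order, and only the SSC-like cells were high: the other two classes did not differ beyond counting error.

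The other PRC2 core genes went the opposite way. Ezh2, Eed and Suz12 were lower in undifferentiated cells, with log2 ratios of -0.60 (-0.93 to -0.26), -0.48 (-0.74 to -0.21) and -0.66 (-1.06 to -0.26), none reaching 2-fold. The median of all genes in this comparison was -0.09. Scml2, at 116 and 118 CPM, did not differ beyond counting error (log2 ratio -0.02, -0.27 to 0.23). Rnf2, Ring1 and Bmi1 had intervals that included 0. For SSC-like cells alone over differentiating-like cells, the intervals of Ezh2 (log2 ratio -0.21, -0.55 to 0.15) and Suz12 (-0.36, -0.78 to 0.07) included 0. That of Eed did not (-0.34, -0.63 to -0.06).

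The undifferentiated classes themselves differed. Of the 10 members, 3 were at least 2-fold higher in SSC-like than in progenitor-like cells (Ezh2, Suz12 and Scmh1), against 5.99% of 9586 genes, and 0 were 2-fold lower, against 3.11%. SSC-like cells had 64.6 CPM of Ezh2 (158 UMIs), progenitor-like cells 23.5 CPM (34 UMIs) and differentiating-like cells 74.5 CPM (124 UMIs). The progenitor-like cells were thus the low class, and the other two were 2.75-fold (1.89 to 4.11) and 3.17-fold (2.15 to 4.78) higher. Suz12 followed the same order, with 41.3, 20.1 and 52.9 CPM, and ratios of 2.06-fold (1.35 to 3.23) and 2.64-fold (1.72 to 4.16). Eed varied less, with 92.0, 69.8 and 117 CPM. Scmh1 was 2.41-fold higher in SSC-like than in progenitor-like cells (1.60 to 3.72). Pcgf6 was lower in SSC-like cells, with a log2 ratio of -0.42 (-0.82 to -0.02). The count of 3 depended on the clustering. It was 0 when cells were clustered on one random split of the UMIs and levels taken from the other, with log2 ratios of 0.98 for Ezh2, 0.94 for Suz12 and 0.78 for Scmh1, 1 under 3 other settings, and 2 under 8, among them the fit that left Polycomb genes out of the variable genes. For these 3 genes the ratio remained above 0 under every setting that gave both classes.

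Progenitor-like cells were also low in cell cycle transcripts. These cells had 6.22 CPM of Mki67 and 45.6 CPM of Top2a, against 74.4 and 286 CPM in SSC-like and 81.1 and 287 CPM in differentiating-like cells. Their part in the Ezh2 and Suz12 levels was not tested, and the following split is a description. Of the SSC-like cells 106 of 112 had a UMI of either gene, and of the progenitor-like cells 36 of 79. Restricted to cells with such a UMI, Ezh2 was at 66.6 CPM in the SSC-like cells and at 23.7 CPM in the progenitor-like ones, a log2 ratio of 1.49 (0.78 to 2.28). Suz12 was at 41.1 and 18.5 CPM, 1.16 (0.34 to 2.08), and Scmh1 at 49.2 and 11.9 CPM, 2.05 (1.08 to 3.22). In this subset 3 members were at least 2-fold higher in SSC-like cells, against 8.57% of all genes, and 0 were lower, against 3.07%. Of the cells with such a UMI, 13 SSC-like and 18 progenitor-like cells had a single one, so the split does not match the classes for cell cycle transcripts. The SSC-like and progenitor-like clusters were formed with Ezh2 among the variable genes.

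The differentiating-like cells were made of clusters of 101 and 32 cells, with Top2a at 229 and 465 CPM and Ezh2 at 55.7 and 133 CPM, a log2 ratio of 1.26 (0.72 to 1.79) between the smaller and the larger. Ezh2 was one of the genes used to form these germ cell clusters. Split by a UMI of Mki67 or Top2a, differentiating-like cells had 75.5 CPM of Ezh2 with and 63.7 CPM without one, which did not differ beyond counting error (log2 ratio 0.25, -0.73 to 1.41). In 3 somatic classes Ezh2 was higher where cell cycle transcripts were counted. The Sertoli-like cells formed 3 clusters of 132, 78 and 45 cells, with Top2a at 20.2, 63.8 and 503 CPM and Ezh2 at 45.8, 78.2 and 168 CPM in the same order. Between the last and the first the log2 ratio of Ezh2 was 1.88 (1.36 to 2.41). Sertoli-like cells with a UMI of Mki67 or Top2a (69 cells) had 150 CPM of Ezh2 and those without (186 cells) 46.6 CPM, a log2 ratio of 1.69 (1.25 to 2.14). In stromal-like cells the levels were 103 and 37.0 CPM, a log2 ratio of 1.47 (0.77 to 2.16), and in peritubular myoid-like cells 95.9 and 45.4 CPM, 1.08 (0.03 to 2.06). In progenitor-like cells the levels were 23.7 and 23.3 CPM, a log2 ratio of 0.03 (-1.03 to 1.10), which allows a 2-fold difference either way. Cells with such a UMI were also deeper, with a median of 10065 against 8007 UMIs in Sertoli-like cells. Cells with at least 5000 UMIs were thinned to that depth, with shallower cells left out. The classes whose Ezh2 interval lay above 0 then numbered 2 in place of 4. The 4 include SSC-like cells, of which only 6 lacked such a UMI.

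Differences of this kind in the other members went in both directions, and several rested on few UMIs. Suz12 was at 45.3 and 27.8 CPM in Sertoli-like cells with and without such a UMI, a log2 ratio of 0.70 (0.01 to 1.38). Eed was at 34.6 and 21.4 CPM there (0.70, -0.10 to 1.48). In differentiating-like cells it was at 111 CPM with and 177 CPM without such a UMI (log2 ratio -0.67, -1.28 to -0.01), where the 29 cells without one had a median of 3736 UMIs. Ezh1, Rnf2, Ring1, Bmi1, Pcgf6 and Scmh1 had intervals that included 0 in Sertoli-like and in stromal-like cells. Over all germ cells, which mix the classes, Ezh1 was at 25.6 CPM with and 41.5 CPM without such a UMI (log2 ratio -0.70, -1.23 to -0.13). Its interval included 0 within each germ class. Suz12 was higher with such a UMI over all germ (0.67, 0.06 to 1.35) and all somatic cells (0.83, 0.28 to 1.37). Eed was higher over all somatic cells (0.77, 0.20 to 1.33) and not over all germ cells (0.03, -0.31 to 0.39). Scmh1 was lower in progenitor-like cells with such a UMI, at 11.9 against 30.5 CPM (log2 ratio -1.36, -2.67 to -0.18). Rnf2 had 0 UMIs in the 15 peritubular myoid-like cells with such a UMI and 19 in the 79 without, with an upper bound of the log2 ratio of -0.20. Scml2 in Sertoli-like cells rested on 10 and 6 UMIs, at 13.3 and 3.88 CPM (log2 ratio 1.78, 0.17 to 3.52). Over all somatic cells it had 16 and 17 UMIs, at 10.6 and 4.41 CPM (1.27, 0.19 to 2.34), and over all germ cells 119 and 104 CPM (0.20, -0.12 to 0.53).

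**Figure D3:**
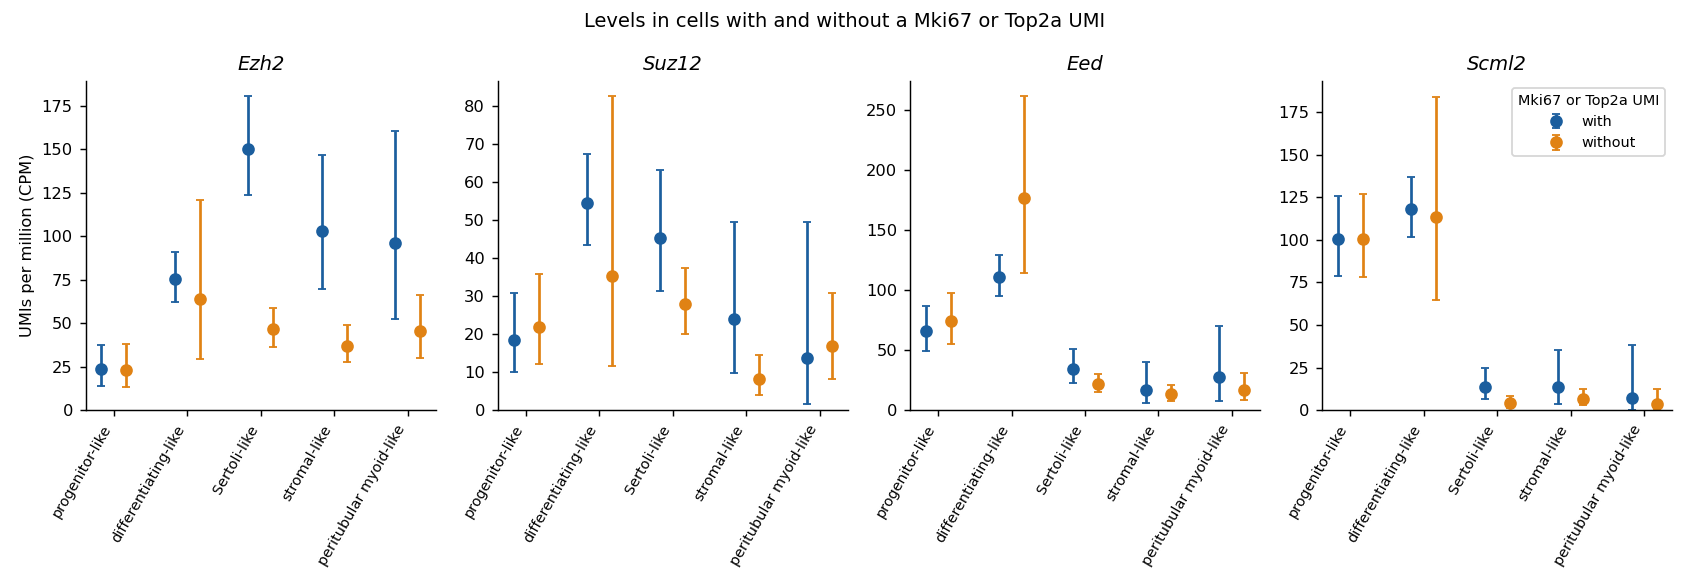
Level (CPM) of Ezh2, Suz12, Eed and Scml2 in cells with (blue) and without (orange) a UMI of Mki67 or Top2a, in 5 classes; bars are 95% Poisson intervals. SSC-like cells are left out because only 6 lacked such a UMI. Ezh2 is higher in the cells with a UMI in Sertoli-like cells (150 against 46.6 CPM) and at 23.7 against 23.3 CPM in progenitor-like cells, where the intervals are wide.

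Pairs of related subunits were set against each other by the share of a pair's UMIs that 1 gene took in each class, with exact binomial intervals. The share changes between classes can be compared, but the share itself also reflects how well each transcript is captured. Of the Ezh1 and Ezh2 UMIs, Ezh2 took 65.6% in SSC-like cells (59.2 to 71.5) and 40.5% in progenitor-like cells (29.9 to 51.7). In differentiating-like cells it took 83.8% (76.8 to 89.3). In Sertoli-like, stromal-like and peritubular myoid-like cells it took 82.2%, 78.4% and 89.1%. Progenitor-like cells were thus the class with the lowest Ezh2 share, and the 3 germ intervals did not overlap. Under other clusterings and under thinning the progenitor-like share ranged from 28.6% to 59.3%. Within Sertoli-like cells the share was 66.7%, 85.7% and 94.0% in the clusters of 132, 78 and 45 cells.

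Rnf2 took 61.2% of the Rnf2 and Ring1 UMIs in germ cells (54.1 to 68.0) and 34.5% in somatic cells (29.7 to 39.6). The germ classes ranged from 55.1% to 67.0% and their intervals overlapped. Bmi1 took 31.2% of the Bmi1 and Pcgf6 UMIs in SSC-like cells and 26.7% in progenitor-like cells, against 69.7% in differentiating-like cells (57.1 to 80.4). The level of Bmi1 itself was 22.5, 24.2 and 27.6 CPM in these classes, while Pcgf6 had 121, 96 and 20 UMIs in them. Scml2 took 78.3% of the Scml2 and Scmh1 UMIs in germ cells (75.4 to 81.1) and 17.5% in somatic cells (12.3 to 23.6). Within the germline it was lowest in SSC-like cells at 71.5% (67.0 to 75.7), where Scmh1 was highest, and 87.9% in differentiating-like cells (82.9 to 91.9).

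**Figure D4:**
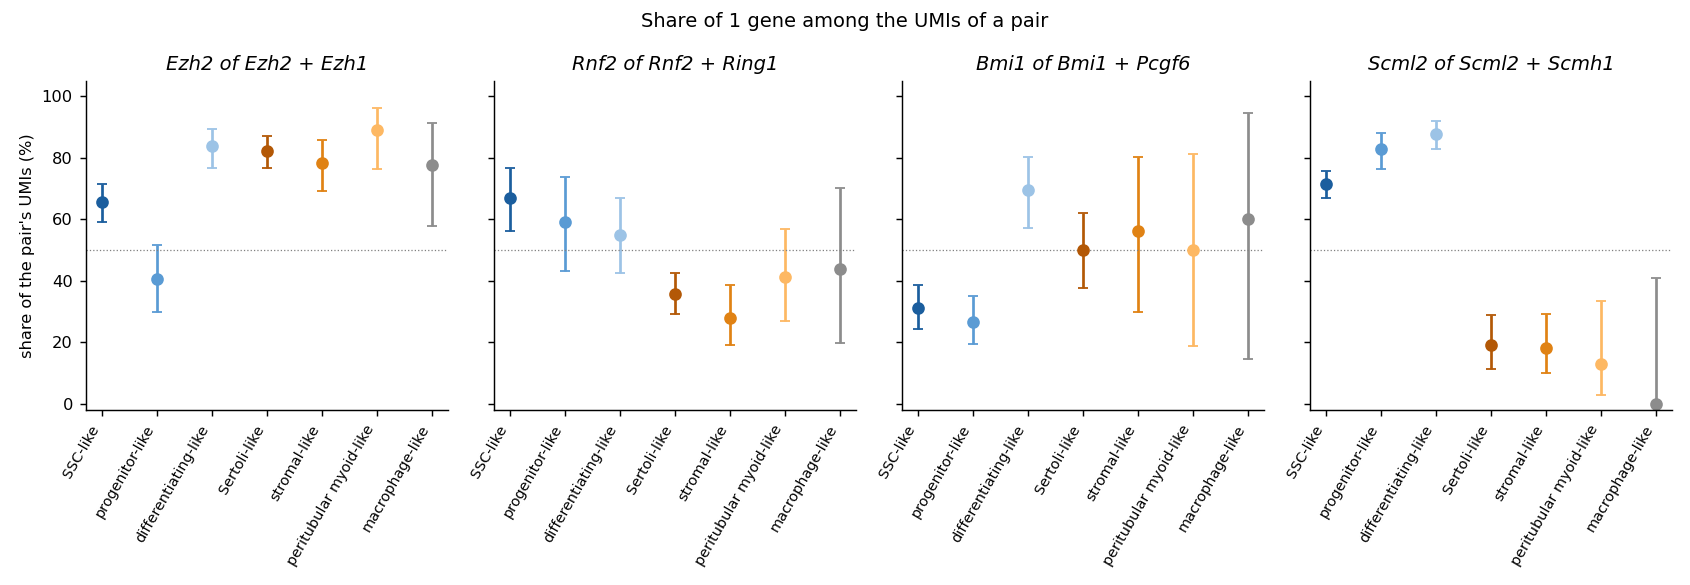
Share (%) of the UMIs of a pair of related Polycomb genes taken by the first gene, in 7 classes. Points are shares and bars exact 95% binomial intervals; the dotted line marks 50%. The Ezh2 share is lowest in progenitor-like cells (40.5%), and the Bmi1 share is 69.7% in differentiating-like and 26.7% in progenitor-like cells.

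Other subunits of these complexes were read from lists of their components. Of 9 PRC2 accessory genes, 4 were at least 2-fold higher in germ than in somatic cells and 0 lower, against 25.3% and 28.7% of all genes. The largest were Epop (17.3 against 1.87 CPM, log2 ratio 3.21, 2.27 to 4.32), Mtf2, which helps PRC2 bind CpG islands (210 against 52.1 CPM, 2.01, 1.82 to 2.21), and Jarid2, an accessory factor that recruits PRC2 (80.5 against 28.9 CPM, 1.48, 1.21 to 1.75). Against Sertoli-like cells alone, 3 of the 8 accessory genes with at least 20 UMIs were at least 2-fold higher in germ cells. Aebp2 was lower (log2 ratio -1.05, -1.42 to -0.66). Against peritubular myoid-like cells, 4 of 8 were higher and Rbbp7 was lower (-1.98, -2.14 to -1.83). The share of all genes passing 2-fold was not computed for either comparison. The median log2 ratio of all genes was 0.11 against Sertoli-like and 0.63 against peritubular myoid-like cells, so these counts are a description only. Of the 4 further PCGF genes, Pcgf5 alone passed 2-fold, at 216 CPM in germ and 11.8 CPM in somatic cells (log2 ratio 4.20, 3.83 to 4.59). Pcgf5 was highest in differentiating-like cells at 305 CPM, with 190 CPM in SSC-like cells and 157 CPM in progenitor-like cells, all above its somatic level.

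Canonical PRC1 genes went in both directions. Of 8 with at least 20 UMIs, 4 were at least 2-fold higher and 2 lower in germ cells, the latter near the share of all genes (28.7%). The chromodomain genes Cbx7 (17.1 against 1.87 CPM, log2 ratio 3.20, 2.25 to 4.30), Cbx2 (32.8 against 6.16 CPM, 2.41, 1.87 to 2.99) and Cbx8 (31.7 against 8.77 CPM, 1.85, 1.38 to 2.35) were higher in germ cells. Cbx6, of the same family, was lower (8.82 against 58.0 CPM, -2.72, -3.18 to -2.28), as was Phc3, a Polyhomeotic homolog (5.76 against 21.5 CPM, -1.90, -2.51 to -1.32). Of 13 variant PRC1 genes 2 were higher (L3mbtl2, log2 ratio 1.69, and Kdm2b, 1.37) and 1 lower (Fbrsl1, -1.07), both below the shares of all genes. Of 8 genes of the H2A deubiquitinase complex PR-DUB and 3 H3K27 demethylase genes, 0 passed 2-fold in either direction, with median log2 ratios of 0.62 and -0.24.

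Fewer genes of any kind passed 2-fold between germ stages, with 10.4% of all genes higher and 8.15% lower in undifferentiated cells and 5.99% and 3.11% in SSC-like over progenitor-like cells. In undifferentiated over differentiating-like cells Cbx7 (20.6 against 9.02 CPM, log2 ratio 1.19, 0.38 to 2.09) and Kdm2b (73.2 against 33.7 CPM, 1.12, 0.70 to 1.56) were at least 2-fold higher, and Phc3 was lower on 17 and 15 UMIs (-1.05, -2.14 to 0.06). In SSC-like over progenitor-like cells Cbx6 was lower on 16 and 20 UMIs (-1.08, -2.12 to -0.06). No PRC2 accessory gene passed 2-fold in either comparison.

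**Figure D5:**
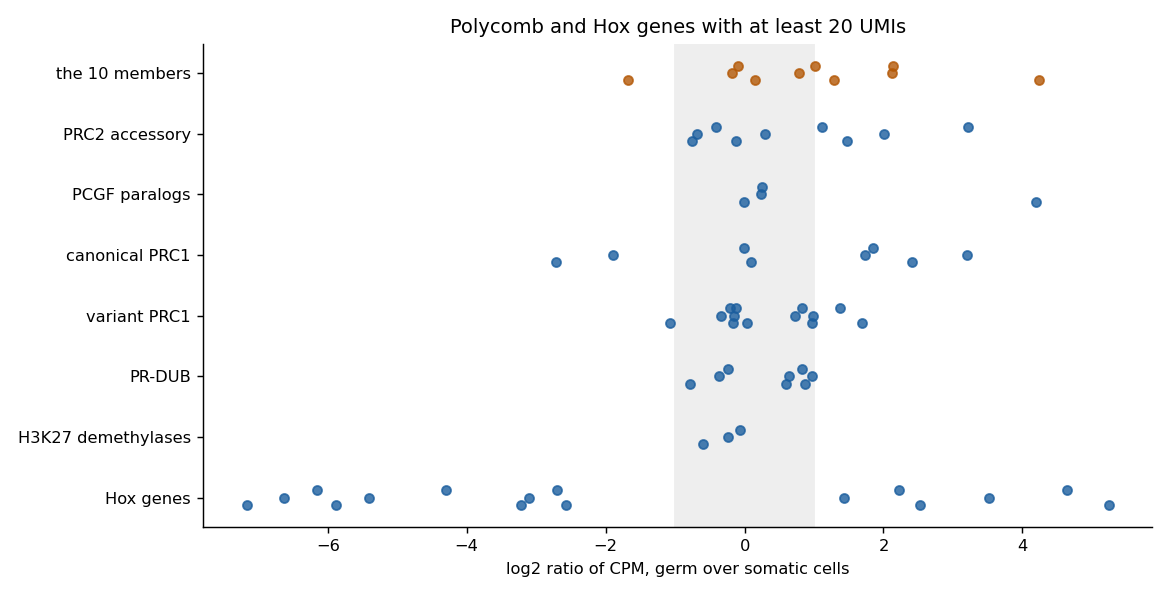
Log2 ratio of CPM in germ over somatic cells for the 10 members (orange) and for other Polycomb genes and Hox genes with at least 20 UMIs in these cells (blue), 1 row per list; the gray band spans a 2-fold difference either way. PR-DUB and demethylase genes lie within the band, Pcgf5 lies at 4.20, and Hox genes lie on both sides from -7.17 to 5.25. Hoxc6, with 0 UMIs in germ cells, has no ratio and is not drawn.

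Over the 7 classes, 9073 genes with at least 100 UMIs were correlated with Scml2 (Pearson r of log2(CPM + 1)). The 5 genes with the highest correlation were Ppan (0.999), Mettl13 (0.998), Rce1 (0.996), Mars (0.996) and Ruvbl1 (0.995). The 7 points share a library, and the correlation is a description of likeness across classes in which germ and somatic cells form separate groups. Ppan was at 192, 186 and 195 CPM in the germ classes and between 9.69 and 35.3 CPM in the somatic ones. Mettl13 was at 36.4, 32.5 and 32.5 CPM in the germ classes and between 1.94 and 9.14 CPM in the somatic ones. Mars was between 67.8 and 84.2 CPM in the germ classes and at 12.6 CPM in Sertoli-like cells. The correlation does not measure the size of a difference, and germ and somatic levels lay closer together for Rce1 and Ruvbl1. Rce1 was between 52.9 and 58.9 CPM in the germ classes and between 23.3 and 34.7 CPM in the somatic ones. Ruvbl1 was between 119 and 129 CPM and between 25.2 and 54.5 CPM. All 5 genes were chosen for their correlation.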

How the data were processed

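Single-cell RNA sequencing was analyzed for 1 wild-type library pooled from 3 mice at postnatal day 8. The deposited matrix holds UMI counts, not normalized, which the authors made with Cell Ranger. The submitters' processing notes name Cell Ranger 2.1.0, Seurat and mm10 (the assembly GRCm38). Strand settings are not given in the sources used here.

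Barcodes with fewer than 500 genes (10), with 10% or more of their UMIs from mitochondrial genes (36) or called doublets by scrublet (scanpy 1.11.5; 4) were removed. The expected doublet rate was 0.01, and this caller marked few cells, so doublets may remain. In Seurat 5.3.0 (R 4.3.3), counts were log-normalized to 10000 UMIs, variable genes were chosen by mean.var.plot, and 14 principal components and a resolution of 0.5 were used for clustering. Germ cells were then clustered again. Each cluster was named for the marker list with the largest mean difference in log-normalized expression. No name was given where fewer than 3 markers reached 10% of the cells, where another class had more markers among the top 10 genes, or where depth was low. Ranking the top genes by that difference was chosen after ranking by fold had left the largest germ cell cluster unnamed because of hemoglobin UMIs.

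UMIs were summed per class as CPM. Levels have exact Poisson, ratios exact conditional binomial and shares exact binomial intervals at 95%, covering counting error only. The 3 mice cannot be told apart, cells are not replicates, and no p-value was computed. Ratios were read for genes with at least 20 UMIs in both groups together, and a difference was counted from 2-fold. Named genes outside the 10 members are the up to 3 with the largest ratio in each direction per list. The 5 genes with the highest correlation with Scml2 are also named. The members and lists were chosen with earlier results of these data known. Positions are from GENCODE and promoters from RefSeq. The ratio and naming steps were tested on simulated data. For the naming step the simulated cells were drawn from the named germ stages with each stage's own markers raised. Their naming therefore does not show how well the names hold in the real cells.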

Additional observations from a re-analysis of the deposited data

How the results depend on the processing

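No paired analysis was possible because the data are 1 library with no replicates. The 5 members at least 2-fold higher in germ cells numbered 4 or 5 under all alternatives except the restriction to cells with a Mki67 or Top2a UMI, which gave 3, with 2 instead of 1 lower and a log2 ratio of 3.49 for Scml2. Elsewhere the Scml2 ratio ranged from 3.87 to 4.31. The 3 members higher in undifferentiated than in differentiating-like cells numbered 2 or 3. The 3 higher in SSC-like than in progenitor-like cells numbered 1 with no mitochondrial limit, at a resolution of 1.2 and with germ cells taken by a Ddx4 or Dazl UMI, and 0 in the count split, in which cells are clustered on a random part of the UMIs and measured on the rest. With germ cells taken by a Ddx4 or Dazl UMI the Eed log2 ratio of that comparison was -0.066, against 0.40.

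The Ezh2 share in progenitor-like cells (40.5%) was 53.1% with no mitochondrial limit, 59.3% at a resolution of 0.3, 52.6% with germ cells by a Ddx4 or Dazl UMI and 28.6% after thinning, and the somatic share was 90.0% in cells with a Mki67 or Top2a UMI. Under a mitochondrial limit of 5%, which left 67 germ cells, the Rnf2 share in germ cells was 70.0% and the Scml2 share 82.8%. After thinning the Bmi1 share in undifferentiated cells was 37.3% and the Scml2 share in germ cells 81.6%. In cells with a Mki67 or Top2a UMI the somatic Scml2 share was 25.8%. The share of germ cells with an Scml2 UMI (72.8%) was 35.8% under the limit of 5%, 59.0% by a Ddx4 or Dazl UMI, 57.8% in the count split, 42.3% after thinning, 84.7% without the 62 germ cells of low UMI count and 77.6% in cells with a Mki67 or Top2a UMI. The classes in which Ezh2 was higher with such a UMI numbered 4, and 2 after thinning. Of 70 levels of a member in a class, 29 stayed within their interval when mitochondrial and ribosomal protein UMIs were left out of the denominator, which raises every level. The resolution of 0.3 gave no SSC-like cells and the limit of 5% no named germ stages, so SSC-like over progenitor-like ratios could not be computed under either, and no stage ratio under the latter. Leaving out the hemoglobin-rich barcode, the germ cells of low UMI count or the cells without a Mki67 or Top2a UMI was chosen after seeing the data. The cause of these shifts was not tested. With 1 library, the spread between animals is unknown, and members with few UMIs, such as Bmi1 and Pcgf6 in somatic classes, have wide intervals.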

Other observations

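Hox genes are among the best known targets of Polycomb silencing, and their transcripts were read from all 39 Hox genes listed. Of 17 with at least 20 UMIs in germ and somatic cells together, 6 were at least 2-fold higher in germ cells and 11 lower, against 25.3% and 28.7% of all genes, and the 6 higher ones belonged to the Hoxb cluster. Several passed the minimum only through the group where they were high, which fixes their call. Hoxb8 was at 14.2 CPM in germ and 0.373 CPM in somatic cells (79 and 2 UMIs, log2 ratio 5.25, 3.35 to 8.32), Hoxb6 at 9.36 and 0.373 CPM (4.65, 2.72 to 7.73) and Hoxb7 at 14.9 and 1.31 CPM (3.52, 2.41 to 4.87). In the other direction, Hoxd10 had 1 germ and 139 somatic UMIs (-7.17, -12.48 to -4.67) and Hoxd4 1 and 96 (-6.64, -11.96 to -4.12). Hoxc6 had 0 germ and 128 somatic UMIs, at least 44.2-fold lower in germ cells when 3 counts over the group are taken as the floor. Stromal-like and peritubular myoid-like cells held most of these somatic UMIs: 63 and 73 for Hoxd10, 56 and 33 for Hoxd4, 73 and 52 for Hoxc6. Of 7 Hox genes with at least 20 UMIs in germ and Sertoli-like cells, 6 were at least 2-fold higher in germ cells. The share of all genes was not computed for this comparison. Hoxb7, Hoxb6 and Hoxb2 had 83, 52 and 42 germ UMIs and 0 Sertoli-like UMIs. They passed the minimum through germ cells alone, which fixes their call. Hoxb9 was lower, with 14 germ and 82 Sertoli-like UMIs.

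Within the germline, 6 of the 39 Hox genes had at least 20 UMIs. Most reached it through the undifferentiated cells alone, so their counts are given as a description. In undifferentiated and differentiating-like cells Hoxb2 had 41 and 1 UMIs (log2 ratio 4.13, 1.57 to 9.47), Hoxb6 50 and 2 (3.42, 1.49 to 6.50) and Hoxb4 32 and 2 (2.77, 0.80 to 5.88). Between SSC-like and progenitor-like cells Hoxb2 was at 15.1 and 2.77 CPM (2.45, 0.97 to 4.40) and Hoxb6 at 18.0 and 4.15 CPM (2.12, 0.88 to 3.64). Hoxb5 had 22 UMIs in SSC-like cells and 0 in progenitor-like cells, at least 4.34-fold higher in the former with the same floor. The number of Hox UMIs was small, and how these transcripts relate to the Polycomb levels was not tested.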
